A study of Homo sapiens with 6 samples.

Results

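The genes described here encode the general transcription factors and the TATA-binding protein-associated factors (TAFs), the proteins that place RNA polymerases at the starts of genes. They were chosen by symbol: every gene whose symbol begins with GTF2 or GTF3, or with TAF and a digit, together with TBP and its relative TBPL1. The rule took 52 of the 18216 genes in the expression table and used no measured value. Because it works on symbols it also holds genes that share the name but not the job, such as TAF15, an RNA-binding protein, and the TFII-I family.

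RNA-seq had been performed in REH cells, an established human line of B-cell precursor leukemia, to ask how inhibition of CDK9 alters the cells' transcripts. CDK9 is the kinase that releases paused RNA polymerase II into elongation, and SNS-032 is an inhibitor of CDK9 that also acts on CDK7 and CDK2. In one group, 3 libraries, the REH cells had received 200 nM SNS-032 for 24 h. In the other, also 3 libraries, they had received the solvent DMSO for 24 h. Nothing in the labels says whether the libraries of a group came from separate cultures, so the p-values below measure only the spread between these libraries, which may be technical, and a single line at a single dose and time limits the comparison to that setting.

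At a gene read by RNA polymerase II, TFIID comes first. It consists of TBP, which bends the DNA around the TATA region, and of TAFs that contact the start site, activators and marked histones. TFIIA and TFIIB lock TBP onto the promoter, TFIIF brings the polymerase, and TFIIE recruits TFIIH, whose helicases open the DNA and whose kinase module, CDK7 with CCNH and MNAT1, phosphorylates the polymerase tail. TBP also serves the other polymerases, within the SL1 complex at ribosomal RNA genes and within TFIIIB at transfer RNA genes, where TFIIIC binds the DNA first. These factors are used by nearly every cell type, and several TAFs have tissue-restricted relatives best known from germ cells.

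Levels are given in FPKM, the deposited unit, in which fragments are scaled by transcript length and by the library's total. FPKM is a share of each library's RNA, so a fold change is relative to the other transcripts, and fewer cells of a kind cannot be told apart from less RNA per cell. Fold changes are log2(FPKM + 1) of SNS-032 minus DMSO, which understates the change of low genes, and a gene was called higher or lower at an adjusted p under 0.05 in limma, with Benjamini-Hochberg adjustment over all 12239 genes whose mean reached 1 FPKM with SNS-032 or with DMSO. The depth of the libraries is unknown, because the table holds no counts. Summed FPKM were 470094.5 to 491886.5 in SNS-032 libraries and 457826.4 to 464307.5 in DMSO libraries, and 11837 to 11928 genes reached 1 FPKM in SNS-032 libraries, against 10765 to 10785 in DMSO libraries. Precursor B-cell markers were present in both groups except MME, the gene of CD10, which was near 0 everywhere (0.03 to 0.17 FPKM with SNS-032 and 0.06 to 0.1 FPKM with DMSO). The 12 precursor B-cell markers summed to 1159.0 to 1289.3 FPKM with SNS-032 and 1852.5 to 1999.7 FPKM with DMSO. Of these markers 3 were called higher and 8 lower, where 39.9% of all genes tested were higher and 49.3% lower. The 4 T-cell markers in the table summed to 2.41 to 4.02 FPKM with SNS-032 and 0.39 to 0.44 FPKM with DMSO. Most of the SNS-032 sum was CD3G (2.94 FPKM with SNS-032 and 0.257 FPKM with DMSO on average), with CD3D and CD3E at or near 0. CD3G passed the filter on low values only through its SNS-032 level, so a call of higher was the only call open to it. The 5 myeloid markers summed to 19.1 to 22.1 FPKM with SNS-032 and 8.83 to 9.25 FPKM with DMSO, with 2 called higher and 1 lower. LYZ (16.7 FPKM with SNS-032 and 3.15 FPKM with DMSO on average) and CD14 (2.32 FPKM with SNS-032 and 0.0667 FPKM with DMSO) were higher, CSF1R was lower (1.05 FPKM with SNS-032 and 4.89 FPKM with DMSO), and MPO was near 0. CD14, like CD3G, passed the filter only through its SNS-032 level, so its call could only be higher. The part of these marker changes in the results below was not tested.

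SNS-032 treatment lowered most of these genes and raised a minority of them. Of the 52 members, 49 passed the filter on low values. Near-identical copies, such as those of GTF2H2 and GTF2IRD2, are counted as separate genes. Of these 49, 32 were lower with SNS-032 (65.3%), where 49.3% of all genes tested were lower, and 12 were higher (24.5%), where 39.9% of all genes tested were higher. The remaining 5 passed in neither direction. A fall of at least 1 on the log2 scale was found for 13 members (26.5%, against 19.5% of all genes tested) and a rise of at least 1 for 3 members (6.12%, against 16.6%). The SNS-032 and DMSO libraries did not overlap for 44 members (89.8%), a share close to the 89.7% of all genes tested. The median fold change of the members was -0.67, with a range of -2.48 to 2.16, and the median of all genes tested was -0.14. Summed over the 52 members, the level was 1080.0, 1105.3 and 1106.3 FPKM in the SNS-032 libraries and 1521.9, 1500.9 and 1531.8 FPKM in the DMSO libraries, so every SNS-032 library held less of this RNA than any DMSO library.

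These counts depend on the scale. When each library was centred on the median of its genes, the median of all genes tested moved by 0.30, the calls over all genes became 6106 higher and 4699 lower in place of 4882 higher and 6032 lower, and the members became 17 higher and 25 lower. That is 34.7% of the members higher and 51% lower, beside 49.9% and 38.4% of all genes tested. Under that centring TAF5L turned to higher. GTF2B, GTF2H1, GTF2H2, GTF2IRD1, TAF4 and TAF9B were no longer called, and GTF2F1, GTF3C1, TAF1A and TAF8 were called higher. The other 38 members kept their calls.

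**Figure D1:**
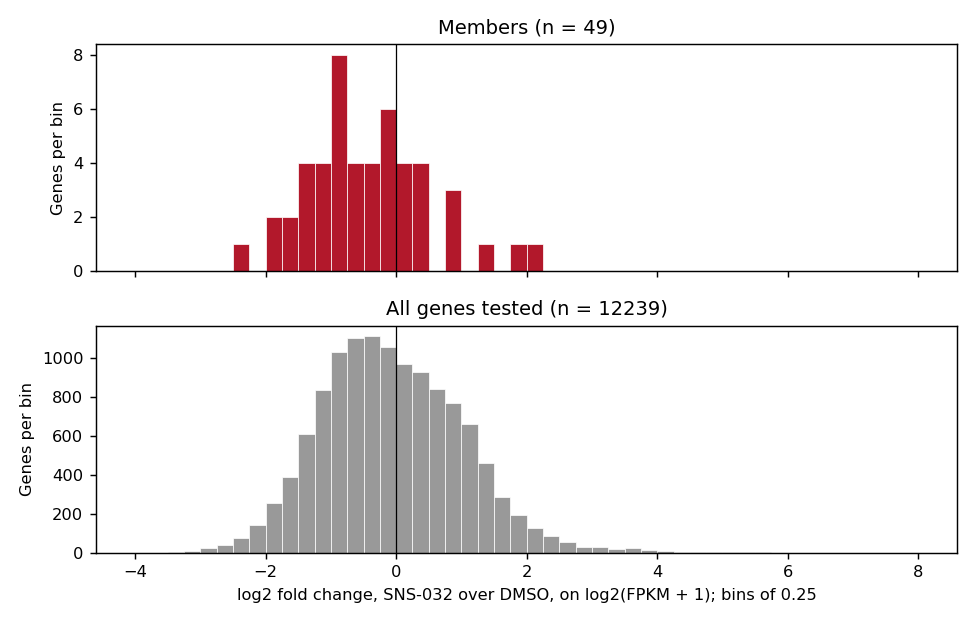
Number of genes (y axis) per bin of log2 fold change, SNS-032 over DMSO (x axis, bins of 0.25), for the 49 members tested in the upper panel and for all 12239 genes tested in the lower panel. The members lie between -2.48 and 2.16 with their median at -0.67, left of the median of all genes at -0.14, and the median of all genes moves by 0.30 to the right when libraries are centred.

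TFIID subunits moved in both directions. Of its 14 subunit genes, 5 were higher with SNS-032, 7 were lower and 2 passed in neither direction, with a median fold change of -0.21. That is 35.7% higher and 50% lower, close to the 39.9% and 49.3% of all genes tested. The 5 that rose were TAF3, TAF7, TBP, TAF13 and TAF9. Those that fell were TAF5, TAF11, TAF6, TAF1, TAF2, TAF10 and TAF4, the last of which lost its call when libraries were centred. The summed level of the 14 genes was 453, 446 and 451 FPKM in SNS-032 libraries and 389, 388 and 398 FPKM in DMSO libraries, so the sum was higher with SNS-032 although more subunits fell than rose.

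TBP itself, the DNA-binding subunit shared by all 3 polymerase systems, rose. TBP (gene ID 6908) lies on chromosome 6 at 170554302 to 170572870 of GRCh38, on the forward strand, with 8 exons in its main transcript. It stood at 38.36, 39.68 and 39.66 FPKM in the SNS-032 libraries and at 20.77, 20.71 and 22.47 FPKM in the DMSO libraries. All SNS-032 libraries lay above all DMSO libraries, and the fold change was 0.85 with a standard error of 0.050 (limma, adjusted p = 8.33e-09), or 1.84-fold on the FPKM scale. TBP took 8.47, 8.9 and 8.79% of the TFIID sum in SNS-032 libraries and 5.34, 5.33 and 5.65% in DMSO libraries.

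The largest rise of any member was that of TAF3, the TFIID subunit whose PHD finger binds a methylated tail of histone H3 at active promoters. TAF3 (gene ID 83860; chromosome 10, 7818504 to 8016627, forward strand, 7 exons) had 61.24, 62 and 56.95 FPKM in the SNS-032 libraries, against 12.41, 12.65 and 12.77 FPKM in the DMSO libraries. The 2 groups lay far apart, with each of them tightly bunched. The difference was 2.16 ± 0.050 (SE) on the log2 scale (limma, adjusted p = 4.07e-12), 4.76-fold on the FPKM scale, and ranked 340 among the 12239 genes tested in order of rise. TAF7, which binds TAF1 and restrains its acetyltransferase activity, followed with 114.57, 116.63 and 125.14 FPKM with SNS-032, against 63.15, 61.5 and 61.6 FPKM with DMSO (log2 fold change 0.92, SE 0.044, limma adjusted p = 1.27e-09). TAF7 is the one member called higher whose main transcript has a single exon, and it was the most abundant TFIID transcript in every SNS-032 library. TAF13, a small histone-fold subunit, had 11.19, 12.66 and 15.43 FPKM with SNS-032, against 7.97, 6.41 and 7.19 FPKM with DMSO (0.78, SE 0.11), a rise with a wider spread. TAF9 rose by 0.37 (SE 0.049), with means of 56.4 ± 1.87 FPKM with SNS-032 and 43.5 ± 1.92 FPKM with DMSO (SD, n = 3 libraries each). TAF9 shares 20.6% of its exon bases with AK6 on the same strand, and AK6 averaged 7.54 ± 0.95 FPKM with SNS-032 and 35.9 ± 0.619 FPKM with DMSO, so the way reads were divided between the genes bears on both values.

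At the other end, the SNS-032 level of TAF5 came close to 1 FPKM, while its DMSO level lay well above the filter. TAF5, the WD-repeat subunit that scaffolds both lobes of TFIID, had 1.18, 1.46 and 1.44 FPKM in SNS-032 libraries and 8.06, 8.26 and 7.49 FPKM in DMSO libraries. It fell by 1.92 on the log2 scale (SE 0.078, limma adjusted p = 2.85e-10) and was 5.84-fold higher with DMSO on the FPKM scale, a fall that ranked 379 among all genes tested. TAF11, the histone-fold partner of TAF13, fell by 1.16 (SE 0.072), with 9.92, 12.26 and 11.16 FPKM with SNS-032, against 26.62, 24.56 and 26.65 FPKM with DMSO. Falls of 0.67 to 0.78 were found for 4 further subunits. TAF6, the histone-fold partner of TAF9, averaged 21.8 ± 1.72 FPKM with SNS-032 and 38 ± 1.34 FPKM with DMSO. TAF1, the largest subunit, which carries bromodomains, averaged 4.35 ± 0.193 FPKM with SNS-032 and 8 ± 0.301 FPKM with DMSO. TAF10, a histone-fold subunit shared with the SAGA coactivator, averaged 52 ± 2.16 FPKM with SNS-032 and 83.2 ± 1.34 FPKM with DMSO, and was the most abundant TFIID transcript in every DMSO library. TAF2, which contacts the initiator element, averaged 12.1 ± 0.575 FPKM with SNS-032 and 20.1 ± 1.05 FPKM with DMSO. TAF4, a target of activators, averaged 10.8 ± 0.333 FPKM with SNS-032 and 14.4 ± 0.68 FPKM with DMSO, a fall of 0.38 on the log2 scale. TAF10 shares 38.9% of its exon bases with ILK and TAF6 shares 24.7% with AP4M1, both on the opposite strand, and ILK (-1.18) and AP4M1 (-1.47) were lower too. Whether the counting used strand is not given in the sources used here.

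TAF12 and TAF8 passed in neither direction. TAF12, the partner of TAF4, had 37.64, 22.65 and 27.69 FPKM with SNS-032, against 27.3, 28.99 and 25.97 FPKM with DMSO, and its 3 SNS-032 libraries spread on both sides of the DMSO libraries (log2 fold change 0.07, SE 0.16). TAF8, which pairs with TAF10, differed by -0.03 with an SE of 0.080.

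**Figure D2:**
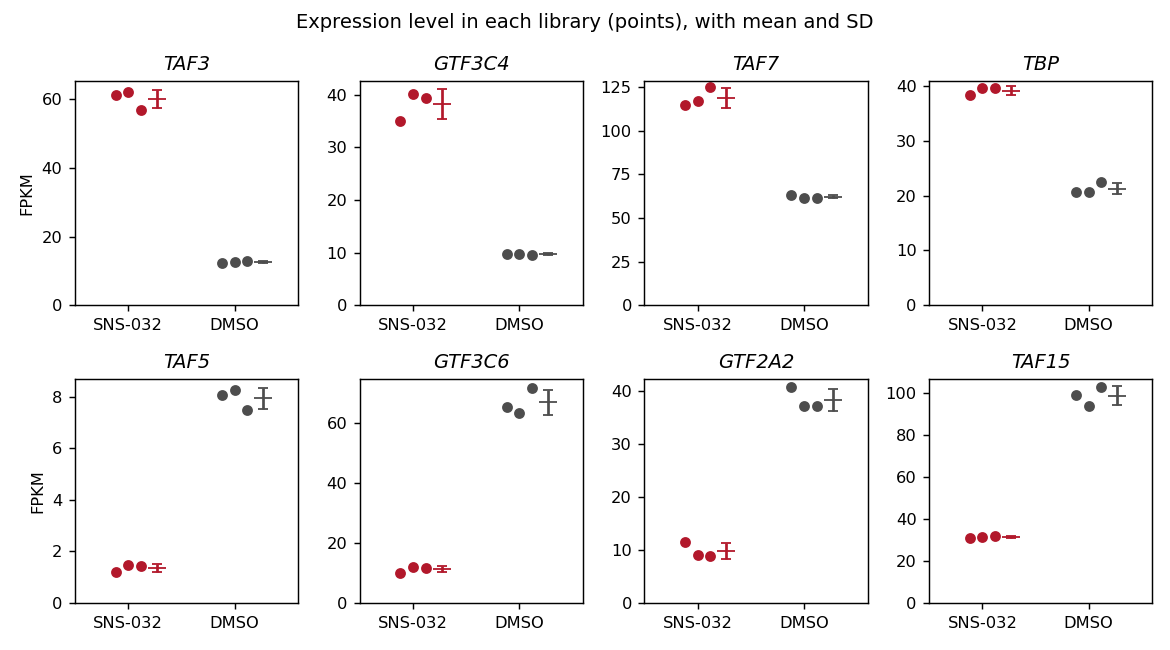
FPKM (y axis) of 8 members in each SNS-032 and DMSO library (points), with the mean and SD of the 3 libraries beside them. The 3 SNS-032 libraries lie above the 3 DMSO libraries for TAF3 (56.95 to 62 FPKM with SNS-032, 12.41 to 12.77 FPKM with DMSO), GTF3C4, TAF7 and TBP, and below them for TAF5 (1.18 to 1.46 FPKM with SNS-032, 7.49 to 8.26 FPKM with DMSO), GTF3C6, GTF2A2 and TAF15.

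With rises and falls in the same complex, the TFIID transcripts lay further apart after treatment. The most abundant subunit exceeded the least abundant by 97.1-, 79.9- and 86.9-fold in SNS-032 libraries, in each case TAF7 over TAF5, and by 10.4-, 13- and 11.8-fold in DMSO libraries. TAF3 stood at place 2 of 14 with SNS-032 and at place 11 with DMSO. TAF9 stood at place 3 in both groups. Many neighbours in this order had SDs that overlapped, each with the next, so their places are uncertain. With SNS-032 these were TAF3 and TAF9 (60.1 ± 2.72 and 56.4 ± 1.87 FPKM). They were also TAF12, TAF6 and TAF8 (29.3 ± 7.63, 21.8 ± 1.72 and 19.5 ± 2.05 FPKM). A further run was TAF13, TAF2, TAF11 and TAF4 (13.1 ± 2.15, 12.1 ± 0.575, 11.1 ± 1.17 and 10.8 ± 0.333 FPKM). With DMSO they were TAF12 and TAF11 (27.4 ± 1.51 and 25.9 ± 1.2 FPKM). Further runs with DMSO were TBP, TAF2 and TAF8 (21.3 ± 0.999, 20.1 ± 1.05 and 19.9 ± 1.7 FPKM), and TAF1, TAF5 and TAF13 (8 ± 0.301, 7.94 ± 0.4 and 7.19 ± 0.78 FPKM). The ratio of TAF3 to TAF5, picked after their values were seen, was 51.9, 42.5 and 39.5 in SNS-032 libraries and 1.54, 1.53 and 1.7 in DMSO libraries.

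**Figure D3:**
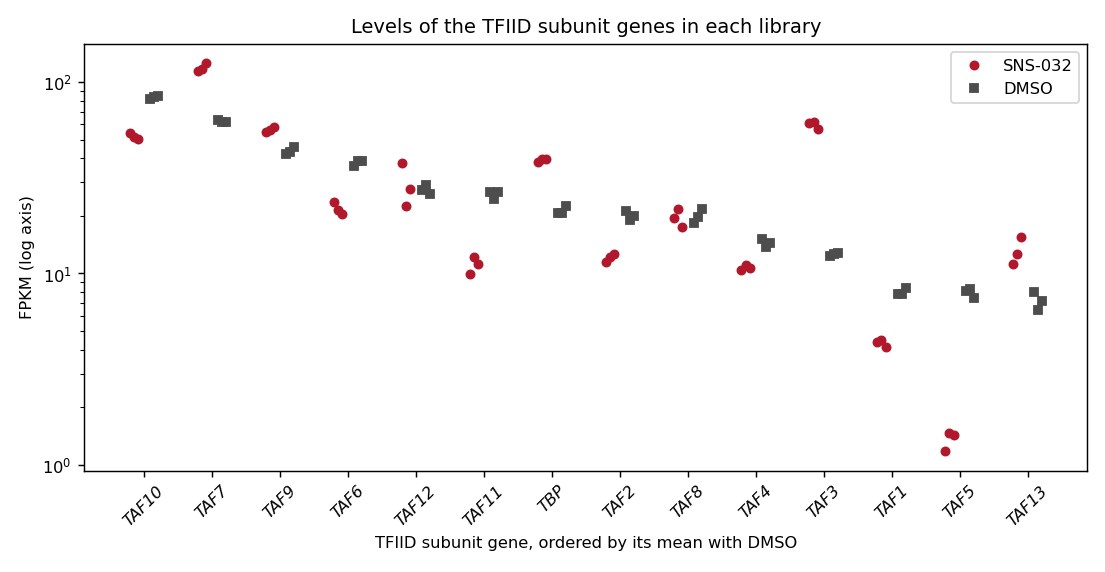
FPKM (y axis, log scale) of the 14 TFIID subunit genes in each SNS-032 library (circles) and DMSO library (squares), in the order of the DMSO means from left to right. Highest and lowest subunit differ by 79.9- to 97.1-fold in the SNS-032 libraries and by 10.4- to 13-fold in the DMSO libraries, with TAF3 and TAF5 moving furthest.

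Many TAFs enter TFIID as pairs joined through histone folds, and the proportions within 4 of 5 such pairs differed between groups without overlap. These pairs were chosen after their values were seen, so the ratios of their FPKM are given as a description. Taken singly, 89.7% of all genes tested had groups without overlap, and the share among other pairs of genes was not computed. TAF3 over TAF10 was 1.13, 1.2 and 1.14 with SNS-032 and 0.152, 0.152 and 0.151 with DMSO. TAF13 over TAF11 was 1.13, 1.03 and 1.38 with SNS-032 and 0.299, 0.261 and 0.27 with DMSO. In both pairs the partner that was scarcer with DMSO was the more abundant one with SNS-032. TAF9 over TAF6 was 2.3, 2.63 and 2.87 with SNS-032 and 1.15, 1.11 and 1.18 with DMSO. TAF8 over TAF10 was 0.359, 0.419 and 0.349 with SNS-032 and 0.223, 0.237 and 0.256 with DMSO. TAF12 over TAF4 was 3.59, 2.03 and 2.58 with SNS-032 and 1.81, 2.12 and 1.8 with DMSO, the one pair of these 5 whose groups overlapped. TAF9, TAF6 and TAF10 share exon bases with AK6, AP4M1 and ILK, so the division of reads may bear on the ratios that hold them.

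TFIID has relatives that replace single subunits in some tissues. Of the 5 such genes, the 3 tested were all lower with SNS-032, where 49.3% of all genes tested were lower. TAF9B was no longer called when libraries were centred. TBPL1, which resembles TBP but does not bind the TATA box, had 10.1, 9.68 and 10.49 FPKM with SNS-032, against 18.03, 18.71 and 17.26 FPKM with DMSO (log2 fold change -0.78, SE 0.058, limma adjusted p = 6.97e-08). TBPL1 shares 34.5% of its exon bases with SLC2A12 on the opposite strand, which moved the other way (0.78) at 1.62 ± 0.237 FPKM with SNS-032 and 0.517 ± 0.0379 FPKM with DMSO. SLC2A12 passed the filter on low values only through its SNS-032 level. TAF9B had 17.96, 15.18 and 17.84 FPKM with SNS-032, against 24.62, 23.21 and 22.57 FPKM with DMSO (-0.45, SE 0.068). TAF4B fell by 0.87 on the log2 scale (5.6 ± 0.359 FPKM with SNS-032 and 11.1 ± 0.206 FPKM with DMSO). The other relatives, TAF1L and TAF7L, known from testis, were below the filter on low values. With no filter both were called higher (TAF7L 0.82, limma adjusted p = 1.72e-05, and TAF1L 0.53, adjusted p = 0.000509), which made 14 of the 52 members higher and 32 lower. That is 26.9% and 61.5% of the members, beside 37.4% and 34.7% of all genes at that setting. TAF7L was at 0.89, 0.84 and 1.19 FPKM with SNS-032, against 0.13, 0.13 and 0.09 FPKM with DMSO, and TAF1L at 0.44, 0.84 and 0.65 FPKM with SNS-032, against 0.12, 0.13 and 0.14 FPKM with DMSO. The TAF1L transcript is 96.3% identical to TAF1 over 5197 bases, so its reads may come from either gene.

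Relatives that passed the filter were also set against their canonical gene. In the pair GTF2IRD1 and GTF2I, of the TFII-I family, that gene is not a subunit of an initiation complex. GTF2I also matches pseudogenes at 99.8% identity, so its level in that pair is uncertain. The difference of log2(FPKM + 1) between relative and canonical gene was compared for 6 pairs with a two-sided exact permutation test over the 6 libraries, in which 3 against 3 cannot go below p = 0.1. TBPL1 over TBP was 0.263, 0.244 and 0.264 on the FPKM scale with SNS-032 and 0.868, 0.903 and 0.768 with DMSO, a shift of -1.63 on the log2 scale. TAF9B over TAF9 shifted by -0.82 and TAF4B over TAF4 by -0.49. TAF5L over TAF5 shifted the other way, by 1.80, with ratios of 15.4, 13.2 and 13.4 with SNS-032 and 2.65, 2.45 and 2.73 with DMSO, and GTF2IRD1 over GTF2I shifted by 0.70. Each of these 5 pairs had groups that did not overlap and reached the smallest exact p of 0.1 (0.12 adjusted over the 6 pairs), above the threshold of 0.05. Lack of overlap was common here, as 89.7% of all genes tested showed it singly. TAF6L over TAF6 was 0.249, 0.275 and 0.24 with SNS-032 and 0.239, 0.276 and 0.248 with DMSO, and its groups overlapped (shift 0.07, exact p = 0.4). The exon bases that TAF9, TAF6 and TBPL1 share with other genes may also bear on their ratios.

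**Figure D4:**
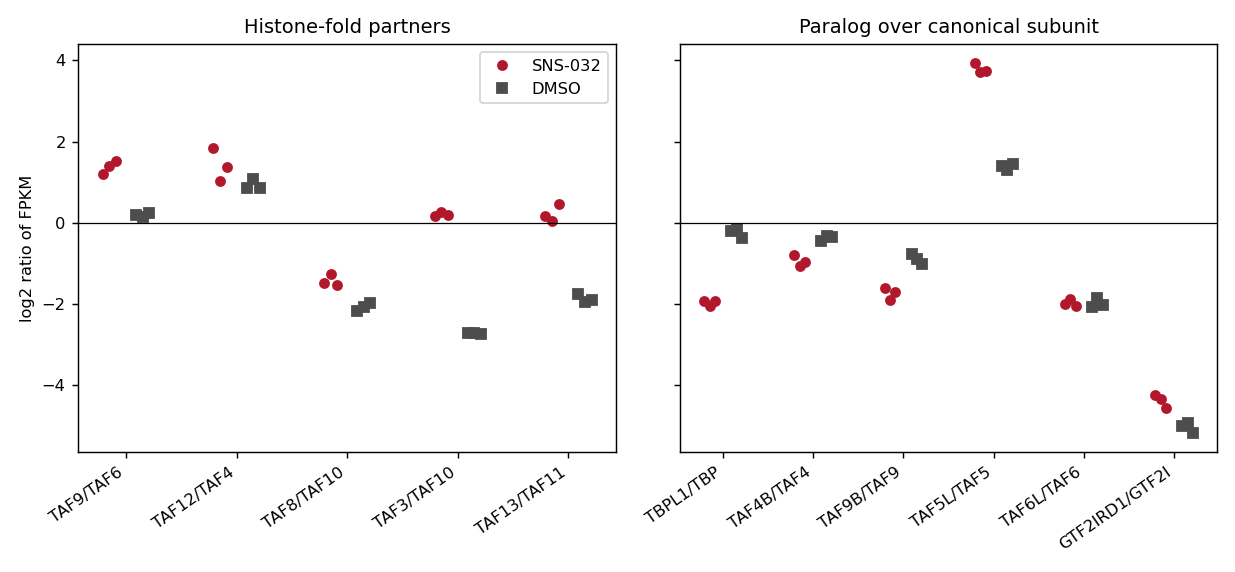
Log2 ratio of FPKM (y axis) in each SNS-032 library (circles) and DMSO library (squares) for 5 pairs of histone-fold partners on the left and for 6 relatives over their canonical gene on the right, with a line at equal levels. TAF3/TAF10 and TAF13/TAF11 lie above the line with SNS-032 and below it with DMSO, and TAF5L/TAF5 lies highest in both groups.

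TAF5L and TAF6L take the places of TAF5 and TAF6 in SAGA, the histone-modifying coactivator that shares TAF9, TAF10 and TAF12 with TFIID. TAF6L was lower with SNS-032 (-0.71, SE 0.088, with 5.55 ± 0.592 FPKM with SNS-032 and 9.69 ± 1.01 FPKM with DMSO). TAF5L lay just past the threshold, with 18.12, 19.29 and 19.3 FPKM with SNS-032, against 21.33, 20.22 and 20.43 FPKM with DMSO (-0.12, limma adjusted p = 0.044). Its call was lost without SNS-032 replicate 1 (adjusted p = 0.0924), without DMSO replicate 1 (0.149), 2 (0.0645) or 3 (0.0858) and with a replicate block (0.0817), and centring turned it to 0.18. Of the 16 other SAGA genes looked at, 9 fell and 5 rose, near the shares of all genes tested (49.3% lower and 39.9% higher), and their median was -0.56. ENY2, of the deubiquitinase module, fell most (-1.93, with 10.1 ± 0.595 FPKM with SNS-032 and 41.1 ± 1.44 FPKM with DMSO), followed by SGF29, a reader of methylated histone (-1.59), while the adaptor TADA2B rose by 1.53.

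Promoters of the TFIID genes that moved furthest, TAF3 and TAF5, and of TBP are shown so that the members that rose can be set against one that fell. They are RefSeq windows on GRCh38.p14 from 250 bases before to 50 bases after the start annotated by RefSeq, written 5′ to 3′ along the gene. That start can differ from the one in the printed gene position, which is from GENCODE, as it does for TBP. Capitals mark matches, on either strand, to 5 short motifs. The TATA box was searched as TATAAA and the E-box as CACGTG. The GC box was searched as GGGCGG and the ETS-type site as CCGGAAG. The last motif searched for was CCAAT. Matches to different motifs may abut or overlap by their end letters.
TAF3, chr10:7818255-7818554, forward strand: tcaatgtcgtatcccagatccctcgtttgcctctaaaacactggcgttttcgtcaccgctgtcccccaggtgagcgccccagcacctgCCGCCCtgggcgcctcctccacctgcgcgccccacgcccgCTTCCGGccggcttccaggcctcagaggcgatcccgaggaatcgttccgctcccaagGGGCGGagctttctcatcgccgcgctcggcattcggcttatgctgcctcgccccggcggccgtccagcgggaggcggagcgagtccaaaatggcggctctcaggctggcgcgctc
TBP, chr6:170554119-170554418, forward strand: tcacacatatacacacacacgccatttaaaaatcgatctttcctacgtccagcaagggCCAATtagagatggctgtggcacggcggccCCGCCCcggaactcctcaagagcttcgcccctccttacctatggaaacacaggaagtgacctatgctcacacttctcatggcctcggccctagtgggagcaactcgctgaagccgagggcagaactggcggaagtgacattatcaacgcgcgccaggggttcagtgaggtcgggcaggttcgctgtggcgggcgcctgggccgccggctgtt
TAF5, chr10:103367726-103368025, forward strand: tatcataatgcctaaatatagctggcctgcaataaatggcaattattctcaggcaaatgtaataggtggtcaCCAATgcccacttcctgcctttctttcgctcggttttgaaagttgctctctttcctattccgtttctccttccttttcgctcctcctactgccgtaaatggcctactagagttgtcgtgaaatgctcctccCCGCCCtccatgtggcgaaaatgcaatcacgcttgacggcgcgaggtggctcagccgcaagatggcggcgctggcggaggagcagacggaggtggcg

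None of the 3 windows holds TATAAA. The TAF3 window holds the ETS-type motif 122 bases before the start and a pair of GC boxes, while the TBP and TAF5 windows each hold a CCAAT and a GC box and no match to the ETS-type motif or the E-box. RefSeq windows were found for 41 of the 49 members tested. The ETS-type motif was present in 21 of these 41 (51.2%), against 20.1% of the 9950 genes tested that have a window and 10.7% of all 27305 windows. It stood in 5 of the 10 higher members with a window and in 12 of the 27 lower ones. The E-box was present in 10 of the 41 (24.4%), against 10.3% of genes tested and 7.43% of all windows, in 1 of the 10 higher members and 8 of the 27 lower ones. TATAAA was present in 3 of the 41 (7.32%), against 5.87% of genes tested and 12% of all windows. CCAAT (39%, against 37.4% of genes tested and 35.7% of all windows) and the GC box (58.5%, against 68.8% and 44.6%) were about as frequent in members as in genes tested, or less so. The median window held 26 CpG in members and 26 in genes tested, against 14 in all windows. These matches are a description of the windows and were not tested.

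The factors that follow TFIID onto the promoter were mostly lower. Of the 14 tested genes of TFIIA, TFIIB, TFIIE, TFIIF and TFIIH, 10 were lower with SNS-032, 3 were higher and 1 passed in neither direction, with a median of -0.56. That is 71.4% lower and 21.4% higher, beside 49.3% and 39.9% of all genes tested. The near-identical copies of GTF2H2 are counted in it as separate genes. Under centring, GTF2B, GTF2H1 and GTF2H2 lost their lower calls and GTF2F1 was called higher, so the lower share of this group depends on the scale. TFIIA, which steadies TBP on the DNA, fell most. GTF2A2, its small subunit (gene ID 2958; chromosome 15, 59638062 to 59657541, reverse strand), had 11.56, 9.07 and 8.9 FPKM with SNS-032, against 40.76, 37.26 and 37.14 FPKM with DMSO (-1.87, SE 0.086, limma adjusted p = 1.68e-09). GTF2A1, the precursor of the other subunits, had 4.44, 4.34 and 4.34 FPKM with SNS-032, against 11.19, 11.04 and 11.16 FPKM with DMSO (-1.17, SE 0.059). TFIIA RNA therefore summed to 16, 13.4 and 13.3 FPKM with SNS-032 and 51.9, 48.3 and 48.3 FPKM with DMSO, while TBP, which it binds, was higher with SNS-032. The germ-cell relative GTF2A1L was at 0, 0 and 0.09 FPKM with SNS-032 and at 0 in all DMSO libraries.

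GTF2B, the gene of TFIIB, was lower by a smaller step, with 17.54, 20.5 and 21.19 FPKM with SNS-032, against 26.27, 26.17 and 23.82 FPKM with DMSO (-0.35, SE 0.072, limma adjusted p = 0.000556), and was no longer called when libraries were centred (-0.05). In both TFIIE and TFIIF the subunits parted. GTF2E1, the larger subunit of TFIIE, rose by 0.28 (SE 0.067), with 9.64 ± 0.18 FPKM with SNS-032 and 7.78 ± 0.629 FPKM with DMSO. GTF2E2, the smaller one, had 11.77, 10.43 and 8.54 FPKM with SNS-032, against 18.25, 17.41 and 18.12 FPKM with DMSO (-0.76, SE 0.091). GTF2F1, the larger subunit of TFIIF, had 32.59, 38.16 and 35.95 FPKM with SNS-032, against 35.63, 36.71 and 38.72 FPKM with DMSO, overlapping groups (-0.06, SE 0.061). Its partner GTF2F2 fell by 0.97 (SE 0.063), with 16 ± 0.232 FPKM with SNS-032 and 32.2 ± 2.71 FPKM with DMSO.

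Of the 7 TFIIH core genes, 5 fell and 2 rose, with a median of -0.23, and GTF2H1 and GTF2H2 were no longer called when libraries were centred. That is 71.4% lower and 28.6% higher, beside 49.3% and 39.9% of all genes tested. GTF2H2, GTF2H2C and GTF2H2C_2 are copies counted as separate genes, so the 5 falls are not 5 separate subunits. GTF2H1, the most abundant of them with DMSO, had 21.28, 21.95 and 21.7 FPKM with SNS-032, against 26.61, 23.62 and 24.98 FPKM with DMSO (-0.20, SE 0.055, limma adjusted p = 0.00417), and stood at 0.10 after centring. GTF2H3 rose by 0.19 (SE 0.060) and the smallest subunit GTF2H5 by 0.40 (SE 0.076), while GTF2H4, which anchors the XPB helicase, fell by 0.98 (SE 0.074), with 6.36 ± 0.545 FPKM with SNS-032 and 13.5 ± 0.907 FPKM with DMSO. The rise of GTF2H3 was not called when libraries were rescaled to equal totals (limma, adjusted p = 0.0709). GTF2H4 shares 79% of its exon bases with VARS2 on the same strand, which fell by a like amount (-0.95). GTF2H2 fell by 0.23 (SE 0.063), GTF2H2C had 3.37, 6.65 and 3.44 FPKM with SNS-032, against 12.28, 10.28 and 8.54 FPKM with DMSO (-1.09, SE 0.23), and GTF2H2C_2 had 1.72, 2.21 and 3.04 FPKM with SNS-032, against 7.12, 5.89 and 9.33 FPKM with DMSO (-1.34, SE 0.17). GTF2H2 and GTF2H2C are 99.7% identical over 2898 bases, so the split of reads among these copies is uncertain. Over all 7 genes TFIIH core RNA summed to 65.2, 71.1 and 68.5 FPKM with SNS-032 and 90, 85.3 and 87.5 FPKM with DMSO, a sum that still depends on that split, since the copies differ in transcript length.

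Of the 5 TFIIH genes outside the symbol rule, 4 fell and ERCC3, the gene of the XPB helicase, rose by 0.38, and their median was -0.92. Among all genes tested, 49.3% fell and 39.9% rose. All 3 genes of the kinase module fell. CCNH, its cyclin, averaged 8.68 ± 0.791 FPKM with SNS-032 and 30.7 ± 1.08 FPKM with DMSO (-1.71), MNAT1 fell by 1.01 and CDK7 by 0.92. Among 3 regulators of TBP, the repressor pair NC2 split, with DRAP1 at -0.94 and DR1 at 0.53, and the ATPase BTAF1, which strips TBP from DNA, was at -0.44.

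**Figure D5:**
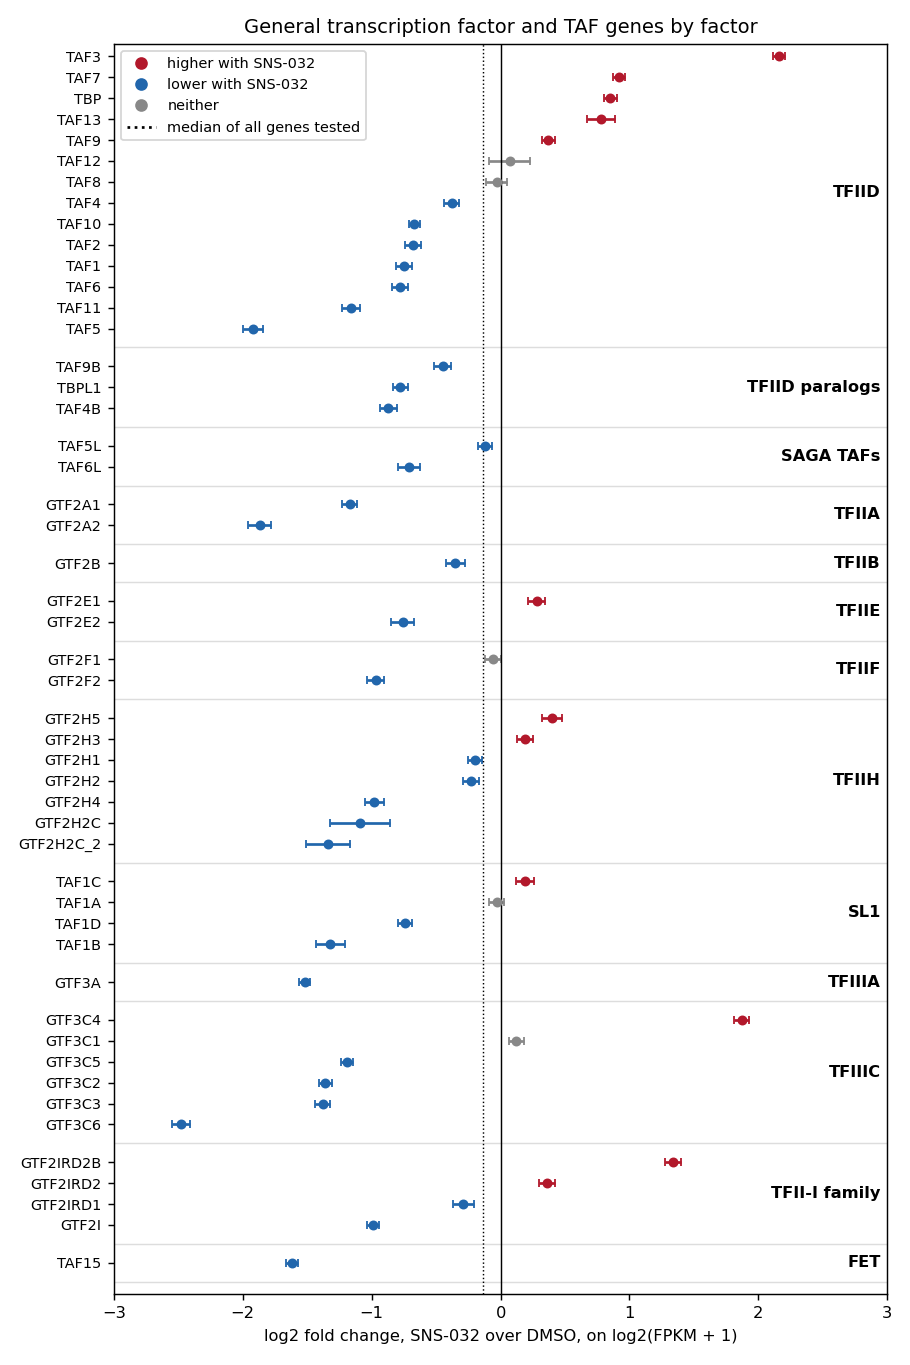
Log2 fold change (x axis, SNS-032 over DMSO, on log2(FPKM + 1)) with its standard error for the 49 members tested, grouped by factor from TFIID at the top to TAF15 at the bottom. Red points were higher (12), blue points lower (32) and grey points in neither direction (5), and a dotted line marks the median of all genes tested at -0.14; blue TAF5L turns to higher when libraries are centred.

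The factors of RNA polymerase III fell by more than 1 on the log2 scale, with 2 exceptions. Of the 7 members, 5 were lower with SNS-032, 1 was higher and 1 passed in neither direction, and the median was -1.36. That is 71.4% lower and 14.3% higher, beside 49.3% and 39.9% of all genes tested. The same 71.4% fell by at least 1, beside 19.5% of all genes tested. GTF3A, or TFIIIA, the zinc-finger protein that binds the gene of the smallest ribosomal RNA, had 48.15, 49.68 and 50.25 FPKM with SNS-032, against 142.56, 141.15 and 146.93 FPKM with DMSO (-1.52, SE 0.040, limma adjusted p = 9.85e-12). Within TFIIIC, the complex of 6 subunits that binds transfer RNA genes, GTF3C6, its smallest subunit, had the largest fall of any member. GTF3C6 (gene ID 112495; chromosome 6, 110958560 to 110967890, forward strand) had 10.01, 11.9 and 11.67 FPKM with SNS-032, against 65.48, 63.54 and 71.78 FPKM with DMSO, a fold change of -2.48 with an SE of 0.069 (limma, adjusted p = 1.54e-11) that ranked 84 among all genes tested in order of fall. A processed copy, AL390039.1, matches 612 bases of its transcript at 97.1% identity. GTF3C3 had 5.94, 5.35 and 5.88 FPKM with SNS-032, against 16.5, 16.41 and 16.41 FPKM with DMSO (-1.38). GTF3C2 had 12.44, 11.55 and 11.6 FPKM with SNS-032, against 32.2, 32.32 and 31.52 FPKM with DMSO (-1.36). GTF3C5, which helps to bind the promoter boxes, had 25.14, 24.76 and 25.72 FPKM with SNS-032, against 56.4, 61.15 and 58.96 FPKM with DMSO (-1.19). In these 3 genes, as in GTF3C6, every SNS-032 library lay below every DMSO library.

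GTF3C4 went the other way. GTF3C4 (gene ID 9329; chromosome 9, 132670035 to 132694955, forward strand, 5 exons) encodes a TFIIIC subunit with histone acetyltransferase activity, and had 35.03, 40.18 and 39.43 FPKM with SNS-032, against 9.81, 9.77 and 9.58 FPKM with DMSO. The groups did not overlap, and the fold change was 1.87 with an SE of 0.060 (limma, adjusted p = 4.44e-11), 3.93-fold on the FPKM scale and at rank 513 among all genes tested in order of rise. GTF3C1, the largest subunit, which binds the B box, averaged 15.4 ± 0.679 FPKM with SNS-032 and 14.1 ± 0.56 FPKM with DMSO (0.12, limma adjusted p = 0.068), and was called higher without SNS-032 replicate 1 (0.14, adjusted p = 0.0417). The order of the subunits differed accordingly: GTF3C6 was the most abundant TFIIIC transcript with DMSO (66.9 ± 4.31 FPKM) and GTF3C4 with SNS-032 (38.2 ± 2.78 FPKM).

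The promoters of these 2 TFIIIC genes, which moved furthest in opposite directions, are given in the same way.
GTF3C4, chr9:132669785-132670084, forward strand: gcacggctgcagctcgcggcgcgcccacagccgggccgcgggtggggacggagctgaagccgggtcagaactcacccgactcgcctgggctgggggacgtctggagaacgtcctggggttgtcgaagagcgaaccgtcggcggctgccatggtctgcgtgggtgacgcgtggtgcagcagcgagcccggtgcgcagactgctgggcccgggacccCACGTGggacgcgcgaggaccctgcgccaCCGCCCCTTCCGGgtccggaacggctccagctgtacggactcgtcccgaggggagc
GTF3C6, chr6:110958456-110958755, forward strand: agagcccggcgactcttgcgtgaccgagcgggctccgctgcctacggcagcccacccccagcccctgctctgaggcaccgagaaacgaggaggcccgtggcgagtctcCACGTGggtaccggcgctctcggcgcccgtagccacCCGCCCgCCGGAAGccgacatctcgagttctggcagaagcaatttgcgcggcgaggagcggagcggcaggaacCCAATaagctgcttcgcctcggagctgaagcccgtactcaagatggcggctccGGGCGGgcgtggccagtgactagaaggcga

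Both windows hold an E-box, an ETS-type motif and a GC box and no TATAAA. The E-box lies 35 bases before the start of GTF3C4 and 142 bases before that of GTF3C6. Distances are taken from the RefSeq start. For GTF3C6 the GENCODE start printed above lies further upstream, so its E-box, ETS-type motif and CCAAT fall inside the GENCODE gene. The ETS-type motif lies at the first base after the start of GTF3C4, where it abuts a GC box, and 99 bases before the start of GTF3C6, which also holds a CCAAT 33 bases before the start. The same 3 motifs thus stand in the windows of the member that rose and of the member that fell.

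The remaining partners of RNA polymerase III were mixed. Of 8 genes of TFIIIB and of SNAPc, which serves small nuclear RNA genes, 5 were lower, 2 were higher and 1 passed in neither direction, with a median of -0.42. Among all genes tested, 49.3% were lower and 39.9% higher. SNAPC2 fell most (-2.19, with 1.48 ± 0.427 FPKM with SNS-032 and 10.2 ± 0.645 FPKM with DMSO), BRF2, a TFIIB-like subunit of TFIIIB, fell by 1.02, and SNAPC4, the DNA-binding subunit of SNAPc, rose by 0.85.

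SL1, which carries TBP to ribosomal RNA genes for RNA polymerase I, had 4 TAF genes of its own. TAF1D, the most abundant, had 27.92, 31.25 and 32 FPKM with SNS-032, against 51.33, 52.28 and 50.39 FPKM with DMSO (-0.74, SE 0.055), and its gene hosts small nucleolar RNAs. TAF1B, a TFIIB-like subunit, had 4.2, 4.37 and 6.17 FPKM with SNS-032, against 13.73, 13.39 and 13.75 FPKM with DMSO (-1.32, SE 0.11). TAF1A did not pass (-0.03, SE 0.059). TAF1C was called higher by 0.19 with overlapping groups, 23.32, 22.08 and 20.27 FPKM with SNS-032 and 17.77, 20.66 and 18.72 FPKM with DMSO (limma, adjusted p = 0.0194), and lost that call without SNS-032 replicate 1 (0.0626), DMSO replicate 1 (0.0919) or DMSO replicate 3 (0.0574) and with libraries rescaled to equal totals (0.0589). The 2 factors that work with SL1 moved widely apart. UBTF, which bends ribosomal DNA, averaged 19.3 ± 0.831 FPKM with SNS-032 and 74.4 ± 1.38 FPKM with DMSO (-1.90). RRN3, which ties the polymerase to SL1, averaged 98.4 ± 1.17 FPKM with SNS-032 and 29.1 ± 1.37 FPKM with DMSO (1.72).

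The TFII-I family and TAF15 share a name with the general factors and not their place in the initiation complex. GTF2I, a regulator that answers to cell-surface signals and the most abundant member with DMSO, had 101.98, 112.5 and 111.92 FPKM with SNS-032, against 223.04, 213.06 and 215.89 FPKM with DMSO (-0.99, SE 0.046, limma adjusted p = 9.31e-10). GTF2IRD1 fell by 0.29 (SE 0.082), a call that was lost when libraries were centred. GTF2IRD2B had 16.54, 18.76 and 17.42 FPKM with SNS-032, against 6.4, 6.32 and 6.28 FPKM with DMSO (1.34, SE 0.062), and GTF2IRD2 averaged 28.1 ± 0.818 FPKM with SNS-032 and 21.7 ± 1.56 FPKM with DMSO (0.36, SE 0.059). These last genes are 99.5% identical over 3560 bases, and GTF2I matches its pseudogenes GTF2IP1 and GTF2IP4 at 99.8% over 3205 bases, so the share of each copy is uncertain. All 4 lie together on chromosome 7.

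TAF15 is an RNA-binding protein of the FET family, to which EWSR1 also belongs. It had 30.98, 31.31 and 31.79 FPKM with SNS-032, against 98.98, 93.83 and 102.92 FPKM with DMSO (-1.62, SE 0.046, limma adjusted p = 1.78e-11), a clear gap between groups. EWSR1 rose by 0.76, with 388 ± 20.4 FPKM with SNS-032 and 228 ± 4.5 FPKM with DMSO.

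Gene structure was compared as a description, from GENCODE v29 on GRCh38. The 12 members called higher had a median gene span of 29.9 kb and a median of 6 exons in the main transcript. The 31 members called lower that have a model had a median span of 36.7 kb and a median of 11 exons. Over all genes tested, those called higher had medians of 28.5 kb and 8 exons and those called lower medians of 31.8 kb and 9 exons. TAF3, with the largest rise, has the longest span of the members called higher (198.1 kb), and GTF3C6, with the largest fall, spans 9.3 kb.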

How the data were processed

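RNA of 6 REH libraries, 3 treated with SNS-032 and 3 with DMSO, was isolated with TRIzol by the authors, and reads were mapped with Bowtie2 and HISAT. The submitters' processing notes name the build GRCh38.p12 with HISAT2 2.0.4 and RSEM. The authors deposited 1 table of FPKM per gene and library, estimated with RSEM and rounded to 2 decimals. It also holds q-values, p-values and log2 fold changes of the authors' own comparison, which were not used. Because the deposited FPKM are not counts, depth and counting error are unknown, and precision rests on the spread between libraries.

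FPKM were tested as log2(FPKM + 1) with limma 3.58.1 (trended, robust) in R 4.3.3, over genes whose mean reached 1 FPKM with SNS-032 or with DMSO, with Benjamini-Hochberg adjustment. The fit was tested on simulated data. Paralog ratios were compared with an exact permutation test in Python 3.11.15 with scipy 1.17.1. Groups were taken from the labels. Gene positions came from GENCODE v29, transcript identity from BLAST 2.17.0, and promoter windows from RefSeq. One copy, GTF2H2C_2, has no position here. All members are named. Values per library are given for TBP, TBPL1, members changed by at least 1 on the log2 scale, the highest member of each factor, and for TAF12, TAF13, TAF1C, TAF1L and TAF7L, chosen after their values were seen. Other lists give up to 3 genes. Some genes of these lists are not reported here. The members and lists were chosen with earlier results of these data known.

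Alternatives were a pseudocount of 0.1, no filter or a mean of 5 FPKM, rescaling to a total of 1000000, centring on the library median, a replicate block and leaving out each library.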

Additional observations from a re-analysis of the deposited data

How the results depend on the processing

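Of the 49 members tested, 36 kept their call under all of the 12 alternatives that tested them, and 45 did so under all alternatives other than centring on the library median. Centring put 6 members higher by at least 1, adding TAF7, TBP and TAF13, in place of 3, and turned the sign of GTF2F1 (0.24), GTF2H1 (0.10), GTF2H2 (0.06), GTF2IRD1 (0.01), TAF1A (0.27), TAF5L (0.18) and TAF8 (0.27), since it added 0.30 to the median of all genes. Those 6 are 12.2% of the members, where 24.3% of all genes tested were higher by at least 1 after centring. The median fold change of the members was -0.42 with no filter on low values, -0.51 with libraries rescaled to equal totals, -0.37 with libraries centred and -0.66 to -0.53 on leaving out each library in turn, each below the median of all genes at the same setting. Leaving out each library gave 31 to 32 lower members and 11 to 13 higher ones. At those settings 48.1 to 49.4% of all genes tested were lower and 38.8 to 40.1% higher. With the replicate block 31 members were lower and 12 higher, beside 48.9% and 39.7% of all genes tested. The one call lost was that of TAF5L (limma, adjusted p = 0.0817). Same-numbered libraries did not deviate together (r = -0.119, 0.0136 and -0.0164 across genes), so the numbers were not taken to pair the libraries. Depth is unknown, so TAF1L, TAF7L and GTF2A1L, all under 1 FPKM with DMSO, could not be given a detection limit.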
